A study of Mus musculus with 20 samples.

Results

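The amino acid transporters described here are 8 genes of the solute carrier families: Slc1a5, Slc38a3, Slc38a4, Slc1a1, Slc3a2, Slc7a5, Slc7a1 and Slc6a9. They were taken as the probes whose gene symbol in the platform annotation was 1 of these 8 names, out of 13406 gene symbols in all. This gave 9 of 17280 probes, with 2 probes for Slc38a4 and 1 for each other gene. All 8 genes had a value on some array. The cells were Hepa1-6, an established mouse hepatoma line grown to confluence in DMEM with 25 mM glucose and the serum substitute CPSR-3. Control flasks were kept at 4 mM glutamine. Experimental flasks received medium with 0 mM glutamine at the start and at 48 h, and with 4 mM at 24 and 72 h, over 96 h in all. Each of 20 spotted 2-colour arrays set Cy5-labelled RNA of experimental flasks against Cy3-labelled RNA of control flasks. The arrays cover 11 numbered time points, of which 9 have 2 arrays and time points 5 and 11 have 1. The second array of a time point carries an r in its title.

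Neither the sampling hour nor the glutamine level of a sampled flask is in the labels, so time points are named by number alone. What the r stands for is not explained there, so in fits to single arrays the spread behind the p-values may be only technical. In tests on time-point means it is the spread among time points. Values are log2 ratios with the median of each array set to 0. A value above 0 likely means more transcript in the experimental flasks, because the labels list that RNA first. The base of the logarithm, the direction and the authors' normalization are not given in the sources used here, and base 2 is assumed. The second channel of 1 array at time point 4 is labelled as cells without glutamine, against the layout of the rest. Dyes were never swapped, so a probe's preference for 1 dye and a lasting difference between flasks cannot be told apart. The results hold for 1 cell line, and they are transcript ratios, not amounts of transporter protein or transport.

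Cells take up amino acids through carriers that couple them to sodium, exchange them for one another, or let them pass along their gradient. Slc1a5 (ASCT2) exchanges glutamine and other small neutral amino acids and is a main entry route for glutamine in many tumour cells. Slc38a3 (SNAT3) and Slc38a4 (SNAT4) are sodium-coupled carriers prominent in hepatocytes, and SNAT3 can move glutamine in either direction. Slc3a2 (4F2hc, CD98) is the heavy chain that brings light chains such as Slc7a5 (LAT1) to the cell surface, where the pair exchanges glutamine for leucine and other large neutral amino acids. When amino acids run short, the kinase GCN2 slows translation and raises the transcription factor ATF4, and several transporter genes, Slc3a2, Slc7a5 and Slc7a1 among them, are known targets of this pathway.

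On all 20 arrays Slc3a2 was called higher at time point 3, close to the threshold (limma adjusted p = 0.0476), so its promoter is shown as an example. RefSeq promoter windows (build GRCm38.p6) around a gene start were found for 5 of the 8 genes, in 10 windows: Slc3a2, Slc1a1, Slc7a1, Slc6a9 and Slc38a4. The 250 bases before the start of Slc3a2 are chr19:8713898-8714147 on the minus strand, and this start lies inside the annotated span of the gene. Capitals mark GGGCGG, the core of a GC box:
Slc3a2: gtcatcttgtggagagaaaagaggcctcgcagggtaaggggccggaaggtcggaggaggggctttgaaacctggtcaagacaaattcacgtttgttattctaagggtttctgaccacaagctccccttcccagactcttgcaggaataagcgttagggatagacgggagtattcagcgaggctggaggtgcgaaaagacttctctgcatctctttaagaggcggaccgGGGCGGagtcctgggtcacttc
On either strand GGGCGG stood in 6 of the 10 windows, against 35.7% of all 32851 windows, and in at least 1 window of each of the 5 genes, against 38.2% of 27025 gene symbols. Shares per gene were not adjusted for the number of windows, of which these 5 genes had 10 and the 27025 symbols 32851. The pattern TGATGNAA, the core of the elements that C/EBP and ATF factors bind, was searched on both strands as well. It stood in 0 of the 10 transporter windows, against 3.97% of all windows. Of the 19 genes found in the table from a list of the GCN2-ATF4 response 8 had it in a window, against 4.51% of all symbols. Asparagine synthetase (Asns, chr6:7693214-7693243, minus strand) and Atf3 (chr1:191183425-191183454, minus strand) show what the pattern looks like, with the match in capitals:
Asns: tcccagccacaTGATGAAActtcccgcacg
Atf3: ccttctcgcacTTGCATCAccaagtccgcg
The match in Atf3 is on the other strand. A missing match says only that these letters are not in these windows.

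In build GRCm38.p6 the genes lie as follows: Slc1a5 at chr7:16781334-16798274, Slc38a3 at chr9:107651154-107668968, Slc38a4 at chr15:96994816-97055956 and Slc1a1 at chr19:28835135-28913960. Slc3a2 is at chr19:8706882-8723369, Slc7a5 at chr8:121881146-121907686, Slc7a1 at chr5:148327410-148399904 and Slc6a9 at chr4:117835258-117869305. Which part of its transcript a probe covers was not analysed here.

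The arrays gave values for between 4269 and 8269 of their probes, and members were often blank. Slc3a2 had a value on 20 arrays, Slc1a1 and Slc6a9 on 19, Slc7a1 and Slc7a5 on 17, Slc38a3 on 12 and Slc1a5 on 11. The Slc38a4 probes had values on 9 and on 7 arrays. The arrays of time points 1 to 4 and 7 to 9 correlated with their partner across probes with r between 0.518 and 0.691. The second arrays of time points 6 and 10 correlated with each of the other 18 arrays between -0.0667 and 0.0539, and with each other at 0.397 over 1400 shared probes. Ratios on the single array at time point 5 and on the first array at time point 6 also depended on the position of a probe in its run of 20 probe numbers. The median of all probes at position 1 was 2.72 and 1.28 on these arrays, and at position 2 it was 1.24 and 0.33. On the other 18 arrays no position had a median outside -0.165 to 0.11. The probe of Slc1a5 lies at position 1, Slc6a9 at position 2, and Slc3a2 and Slc7a1 at position 3. Results are therefore given on all 20 arrays and on 18 arrays, without the second arrays of time points 6 and 10 and without position 1 on the raised arrays. Further settings, chosen after the data had been seen, leave out positions 1 to 4 there or centre each array by position. Of 10 hepatocyte markers with a probe, 7 had values on 9 or more arrays and Afp had none, while of 3 macrophage markers C1qa had values on 8 arrays and Adgre1 and Cd68 had none. Of 5 stellate cell and fibroblast markers 3 had values on 9 or more arrays: Col1a2 on 19, Acta2 on 18 and Vim on 17. Their part in the results was not tested.

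**Figure D1:**
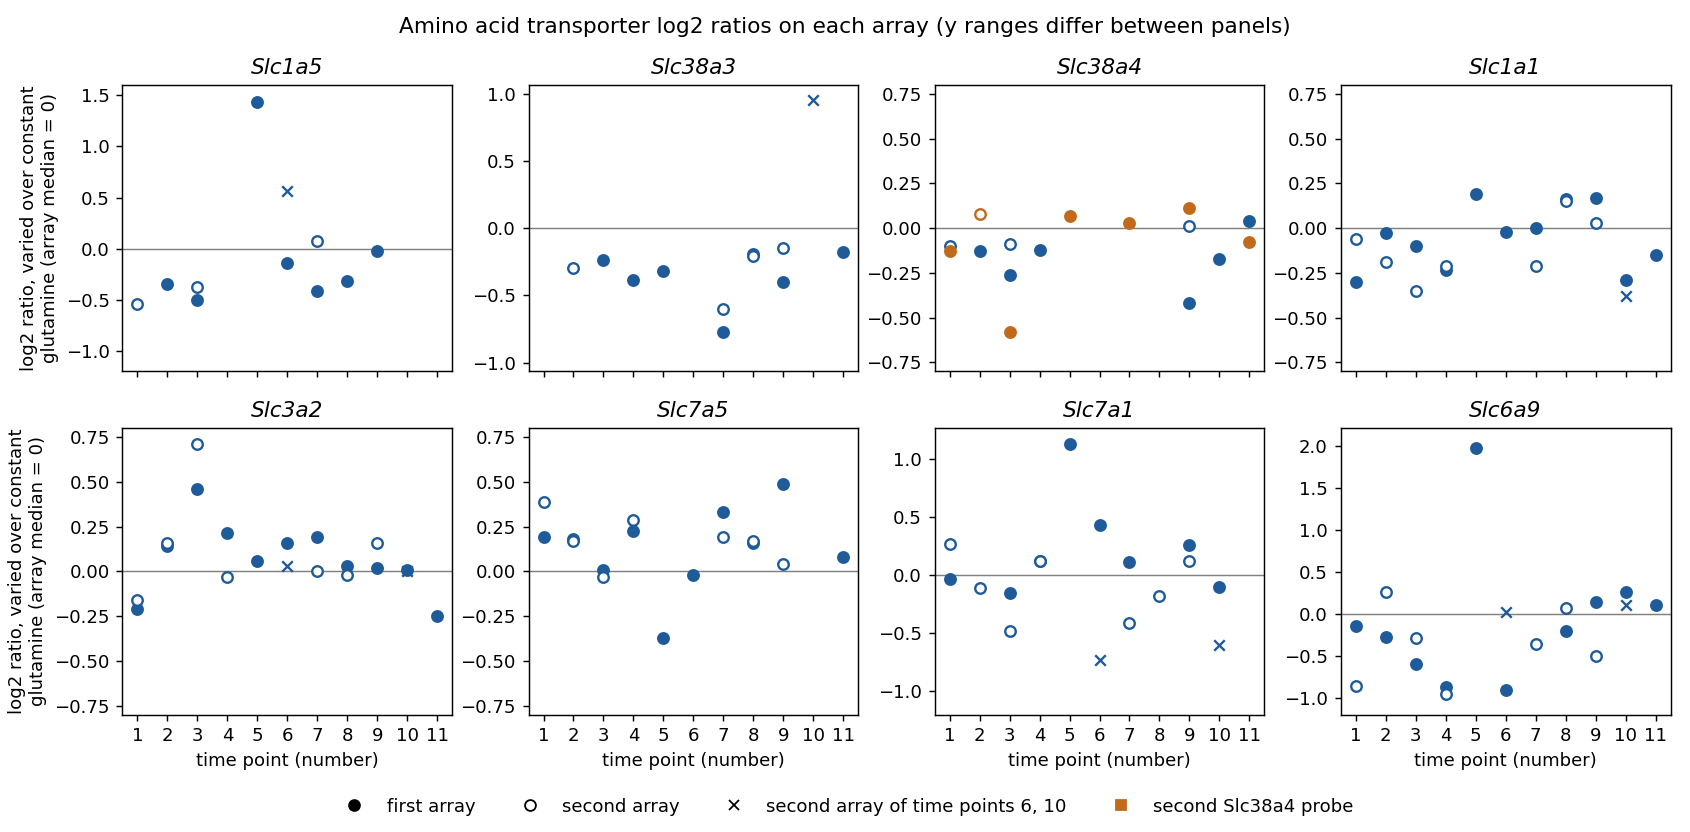
Log2 ratios (y, array median at 0; ranges differ between panels) of each transporter on each array against time point number (x). Filled points are first arrays, open points second arrays, crosses the second arrays of time points 6 and 10, and orange the second Slc38a4 probe. Slc38a3 lies below 0 on each array except 1 cross at 0.95, and Slc3a2 is highest at time point 3 (0.46 and 0.71).

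The first question was whether any transporter stayed higher or lower in the experimental flasks over the whole experiment. For this, both arrays of a pair were averaged, and limma compared the mean over time points with 0 in genes measured at 9 or more of them, with Benjamini-Hochberg adjustment over all genes. On all 20 arrays 0 of the 7 transporters tested passed an adjusted p of 0.05, where 22.6% of 4752 genes did (13.6% higher and 9.05% lower). At an unadjusted p under 0.05 the count was also 0, the lowest being 0.126 for Slc7a5. The median of the 7 means was -0.06, against 0.02 over all genes tested, and 4 of the 7 lay below 0. With the 18 arrays 0 of 6 tested transporters passed, where 32.9% of 4398 genes did, and 0 had an unadjusted p under 0.05.

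Slc38a3, the glutamine carrier SNAT3, was below the array median on 11 of its 12 arrays. Its ratios were -0.30 on the second array of time point 2, -0.24 at time point 3, -0.38 at time point 4 and -0.32 at time point 5. Time point 7 gave -0.77 and -0.60, time point 8 gave -0.19 and -0.21, time point 9 gave -0.40 and -0.15, and time point 11 gave -0.18. The exception was 0.95 on the second array of time point 10, which is 1 of the 2 arrays unlike the rest. The lowest values were both at time point 7, and arrays of the same time point differed by 0.25 at most. With all arrays the mean was -0.18 ± 0.45 (SD, n = 9 time points) and did not pass limma's test (adjusted p = 0.353). Without the 2 unlike arrays Slc38a3 had values at 8 time points, under the limit of 9. With a limit of 6 its mean was -0.32 ± 0.16 (SD, n = 8), a ratio of 0.799, lower at 8 of 8 time points (limma, adjusted p = 0.00471), where 14.3% of 6214 genes were called lower. Leaving out each time point in turn there, with a limit of 5, kept the adjusted p between 0.00478 and 0.0161. The call thus rests on leaving out 1 array and on the lower limit. With genes on 10 or more arrays tested at single time points, Slc38a3 was called lower at time point 7 (-0.69, SE 0.13, a ratio of 0.622, limma adjusted p = 0.0319), where 6.38% of genes were called. It was called higher at time point 10 on the 1 array already named (adjusted p = 0.0279, where 12.2% of genes were called).

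Slc1a5, the glutamine exchanger ASCT2, was below the median on 8 of 11 arrays. Its ratio was -0.54 on the second array of time point 1, -0.35 at time point 2, -0.50 and -0.38 for time point 3, -0.32 at time point 8 and -0.02 at time point 9. At time point 7 its arrays gave -0.41 and 0.07. The remaining 3 values come from arrays described above: 1.43 at time point 5, -0.14 on the first array of time point 6 and 0.56 on the second. Against the median of its own spot position the first 2 of these were low, by -1.29 and -1.42. With a limit of 6 time points the mean on all arrays was -0.03 ± 0.64 (SD, n = 8, limma adjusted p = 0.939). On the 18 arrays it was -0.31 ± 0.19 (SD, n = 6), a ratio of 0.808, and lower at 6 of 6 time points (adjusted p = 0.0229). Centred by position, and with all arrays, it was -0.44 ± 0.38 (SD, n = 8) and lower at 8 of 8 (adjusted p = 0.0289), where 9.61% of 6460 genes were called lower. This mean includes the values of -1.29 and -1.42 on the raised arrays. The part of the raised positions in them beyond the position median was not tested. On the 18 arrays, leaving out time point 1, 2, 3 or 8 (limit of 5) ended the call (adjusted p from 0.0543 to 0.0668), with the mean between -0.30 and -0.26. With genes on 10 or more arrays tested at single time points, Slc1a5 was called higher at time point 5 (1.43). That value comes from 1 array, the one with the raised position.

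Slc38a4, the system A carrier of small neutral amino acids, was near 0. The first of its probes gave -0.42 to 0.04 over 9 arrays and was negative on 7 of them. The second gave -0.58 to 0.11 over 7 arrays and was positive on 4. Both were measured on the first arrays of time points 3, 9 and 11. They were both negative at time point 3 (-0.26 and -0.58) and differed in sign at time points 9 (-0.42 and 0.11) and 11 (0.04 and -0.08). The mean over time points, with the probes averaged, was -0.08 ± 0.10 (SD, n = 9, limma adjusted p = 0.290). Centring each array within runs of 540 probe numbers gave -0.18 (adjusted p = 0.0107), where 9.45% of genes were called lower. Without centring the mean was 0.18, higher at 9 of 9 time points (adjusted p = 0.0159), where 2849 of 4752 genes were called higher. The direction of a call thus depended on the centring. The probes by themselves had too few time points for the test.

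Slc1a1 (EAAC1), the sodium-coupled carrier of glutamate and aspartate, varied little. Its ratios were -0.30 and -0.06 for time point 1, -0.03 and -0.19 for time point 2, -0.10 and -0.35 for time point 3, and -0.24 and -0.21 for time point 4. They were 0.16 and 0.15 for time point 8 and 0.17 and 0.03 for time point 9. At time point 10 they were -0.29 and -0.38, and at time point 11 -0.15. The array of time point 5 gave 0.19 and the one of time point 6 with a value gave -0.02, while time point 7 gave 0.00 and -0.21. The arrays of time points 1 to 4 and 10 were thus all below 0 and those of 8 and 9 all above, with a range of -0.38 to 0.19. The mean was -0.08 ± 0.17 (SD, n = 11, limma adjusted p = 0.306), and the time points did not pass the F-test described next (adjusted p = 0.369). Single time points centred within runs of 540 were called lower at 4 (-0.36, limma adjusted p = 0.0471) and 10 (-0.33, 0.04). Without centring, time point 8 was called higher (0.545, adjusted p = 0.00657). The direction of these calls thus differed with the centring, and the share of all genes called there was not worked out.

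The second question was whether the ratios differed among time points. Limma was fitted to the single arrays, with time point as a factor, in genes measured on 16 or more of them, so that the spread came from the 9 pairs. A moderated F-test called 0 of the 5 transporters tested, where it called 7% of 3744 genes, and 2 of the 5 had an unadjusted p under 0.05, 0.00401 for Slc6a9 and 0.0153 for Slc3a2. In the same fit each time-point mean was tested against 0, which called 2 transporter values, Slc3a2 at time point 3 and Slc6a9 at time point 5, where 3.57% of 40242 values over all genes and time points were called. The fit to the 18 arrays called 6 transporter values, Slc3a2 at time point 3 and Slc6a9 at time points 1, 3, 4, 5 and 6, where 15.6% of 34882 values were called.

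Slc3a2, the shared heavy chain, was the transporter with values on all 20 arrays. It gave 0.46 and 0.71 at time point 3, the highest of all its values. Time point 2 followed with 0.14 and 0.16, and time point 4 gave 0.22 and -0.03. Time point 1 lay below 0 with -0.21 and -0.16, as did time point 11 with -0.25. The other 11 arrays stayed between -0.02 and 0.19. Among them the array of time point 5 gave 0.06, which is -0.40 against the median of its position (0.46). Neither array of time point 3 overlapped with any other array, and the arrays of a time point were close, with an SD within pairs of 0.115 on the 18 arrays, lower than in most genes (7.61% had a smaller one).

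The mean of Slc3a2 at time point 3 was 0.59 (SE 0.10), a ratio of 1.5, with limma adjusted p = 0.0476. At this time point 0.187% of 3737 genes were called on all arrays. On the 18 arrays its adjusted p was 0.00157, where 12.5% of genes were called. The call on all arrays was close to the threshold. It was lost with genes on 10 or more arrays included (adjusted p = 0.0805), with arrays centred by position (0.0514), with each probe tested by itself (0.0509) and with the array number as a block (0.0896). Leaving out any 1 array of a pair, other than those of time point 10, also ended it (adjusted p from 0.059 to 0.571), with the mean between 0.46 and 0.71. Leaving out an array of time point 10 gave 0.00417 or 0.00369. The F-test of Slc3a2 gave adjusted p = 0.123 on all arrays, 0.0627 on the 18 arrays and 0.0335 with positions 1 to 4 left out as well, where 28.8% of genes were called. Over time points its mean was 0.07 ± 0.21 (SD, n = 11, adjusted p = 0.474).

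Slc7a5, the LAT1 light chain that pairs with Slc3a2, did not share its peak. Its values at time point 3 were 0.01 and -0.03, among those nearest to 0, as was -0.02 at time point 6. Elsewhere it was mostly above the median, with 0.19 and 0.39 for time point 1, 0.18 and 0.17 for time point 2, 0.23 and 0.29 for time point 4, and 0.33 and 0.19 for time point 7. Time point 8 gave 0.16 and 0.17, time point 9 gave 0.49 and 0.04, and time point 11 gave 0.08. The array of time point 5 was the low one, at -0.37, which is -0.26 against the median of its position. In all 14 of 17 arrays were positive. The mean was 0.11 ± 0.20 (SD, n = 10), a ratio of 1.08, and missed the threshold (limma adjusted p = 0.260), but without time point 5 it was 0.16 (adjusted p = 0.0363, where 17% of genes were called higher). Over the 8 time points that Slc3a2 and Slc7a5 shared with the raised positions left out, their time-point means had r = -0.47, given as a description over values from the same arrays.

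Slc7a1 (CAT-1), which carries arginine and lysine, had no direction of its own. Its arrays gave -0.03 and 0.27 for time point 1, -0.11 at time point 2, -0.15 and -0.48 for time point 3, and 0.13 and 0.12 for time point 4. They gave 0.11 and -0.41 for time point 7, -0.18 at time point 8, 0.26 and 0.12 for time point 9, and -0.10 and -0.60 for time point 10. Its highest value, 1.13, was on the array of time point 5, where the median of its position was 0.46. Time point 6 gave 0.43 and -0.73. The arrays of 3 of the 7 time points with a pair differed in sign. The mean was 0.03 ± 0.43 (SD, n = 10, limma adjusted p = 0.873) and fell to -0.09 without time point 5 (adjusted p = 0.336). With genes on 16 or more arrays required, the F-test gave adjusted p = 0.433, but 0.00292 and 0.013 without the first or the second array of time point 10, where 51.8% and 28.7% of genes were called. These 2 fits keep the value of time point 5 and used an SD of 0.238 and 0.235, against 0.344 on all arrays. The F-test gave adjusted p = 0.318 without time points 5, 6 and 10 and 0.538 centred by position.

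**Figure D2:**
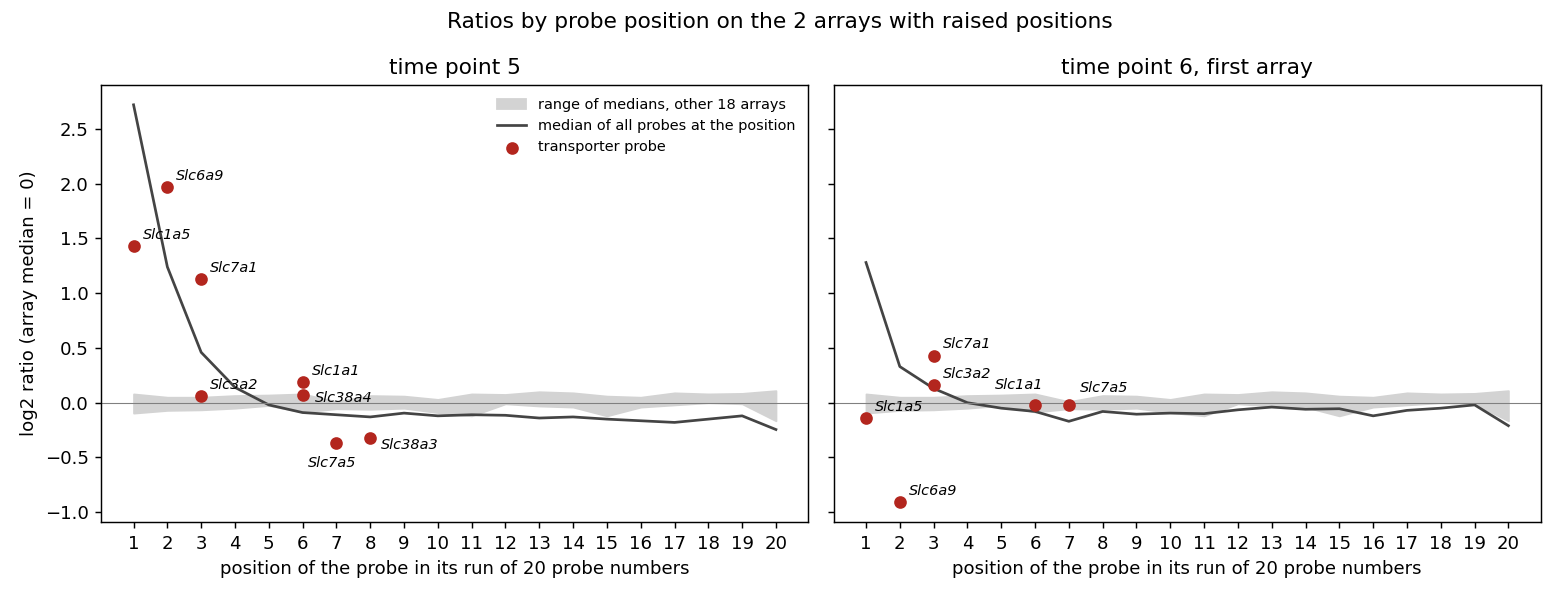
Median log2 ratio of all probes (line) at each of 20 positions in a run of probe numbers (x) on 1 array each of time points 5 and 6, with the range of the medians on the other 18 arrays in grey and transporter probes in red. The median is 2.72 at position 1 and 1.24 at position 2 at time point 5, and Slc6a9 (1.97) and Slc7a1 (1.13) lie above the medians of their positions while Slc1a5 (1.43) lies below.

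Slc6a9 (GlyT1), a sodium- and chloride-coupled glycine transporter, had the widest range of the transporters. It gave -0.15 and -0.86 for time point 1, -0.28 and 0.26 for time point 2, -0.60 and -0.29 for time point 3, and -0.88 and -0.95 for time point 4. At time point 5 it gave 1.97, and at time point 6 -0.91 and 0.02. The remaining values were -0.36 at time point 7, -0.20 and 0.07 for time point 8, 0.14 and -0.50 for time point 9, 0.26 and 0.10 for time point 10, and 0.11 at time point 11. All 6 arrays of time points 1, 3 and 4 were thus negative, and the 3 of time points 10 and 11 were positive. Arrays of a time point disagreed more than in most genes: the SD within pairs was 0.339 on the 18 arrays, and 96.6% of 5099 genes had a smaller one.

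The value of Slc6a9 at time point 5 was called (limma adjusted p = 0.0024, where 11.3% of genes were called at that time point). The median of all probes at its position was 1.24 on this array, and centred by position the value was 0.73 (adjusted p = 0.317). The part of the raised positions in the value beyond that median was not tested. The mean of -0.91 (SE 0.24) at time point 4 missed the threshold with all arrays (adjusted p = 0.0652) and passed with 18 (1.11e-06), where 25.8% of genes were called. Leaving out 1 array of time point 6 or 10 brought it under the threshold (0.000259 to 0.0494). The F-test gave 0.0546 on all arrays, 4.11e-15 on the 18 arrays, where 33.7% of genes were called, 0.00275 without time points 5, 6 and 10, where 15.3% were, and 0.455 centred by position. The 18-array fit draws each gene's spread strongly to a common one and used an SD of 0.205 for Slc6a9, whose own was 0.339. The fit without time points 5, 6 and 10 used 0.208. Those without the first or the second array of time point 10 used 0.245 and 0.243. The small p-values of these fits thus rest on a spread below its measured one. The mean over time points was -0.06 ± 0.74 (SD, n = 11, adjusted p = 0.846). With positions 1 to 4 left out it was -0.23 ± 0.36 (SD, n = 9, adjusted p = 0.0801).

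**Figure D3:**
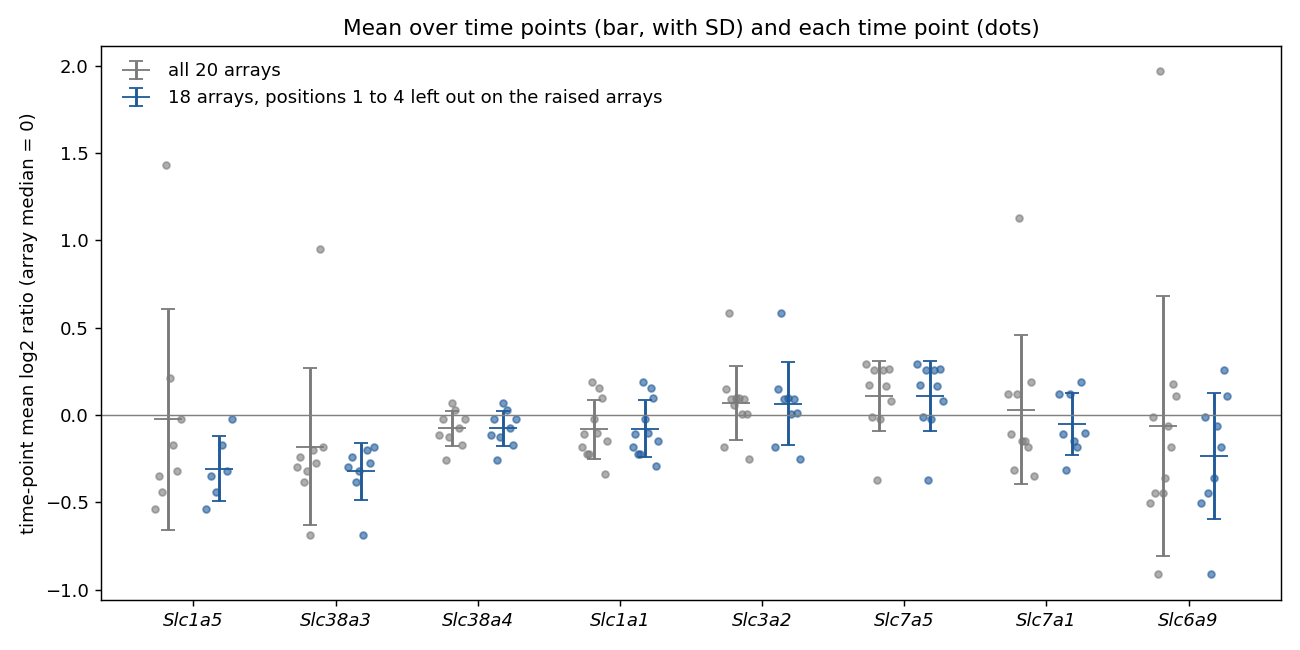
Time-point means of the log2 ratio (dots; y, array median at 0) and their mean with SD (bars) for each transporter, on all 20 arrays (grey) and on 18 arrays with positions 1 to 4 left out on the raised arrays (blue). Slc38a3 and Slc1a5 lie wholly below 0 in the blue set, with means of -0.32 and -0.31, while the other genes have time points on both sides of 0.

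Because glutamine was withdrawn and returned in repeated rounds, a repeating component was fitted with sine and cosine terms of a period of 5 steps, on the assumption that sampling was evenly spread. Limma called 0 of the 7 transporters and 0% of 4752 genes, and 0 transporters and 178 genes had an unadjusted p under 0.05. The 18 arrays also gave 0 calls, with 256 genes at an unadjusted p under 0.05, Slc7a1 among them (0.0309 unadjusted and 0.832 adjusted).

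In order of their means on the 18 arrays with a limit of 6 time points and positions 1 to 4 left out, the transporters ran from Slc38a3 (-0.32) and Slc1a5 (-0.31) over Slc6a9 (-0.23), Slc1a1 (-0.08), Slc38a4 (-0.08) and Slc7a1 (-0.05) to Slc3a2 (0.07) and Slc7a5 (0.11). Each neighbouring pair in this order differs by less than the SD over time points of either gene, and differences between transporters were not tested. Across their shared time points the transporters did not follow a common course: r between pairs with 6 or more time points lay between -0.612 (Slc3a2 and Slc7a1) and 0.812 (Slc7a1 and Slc7a5, 7 time points).

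The genes most like each transporter in their time-point means on the 18 arrays were found by Pearson's r over 9 or more shared time points. All points share their arrays, and r is the highest of 2754 to 3899 genes compared, so it is given as a description. Slc3a2 was most like Smoc2 (r = 0.926) and Clasp2 (r = 0.919), and both values held without time point 5 (0.927 and 0.919). Slc7a5 was most like Zscan12 (0.99, and 0.953 without time point 5) and Laptm4a (0.975 and 0.95). For Slc1a1 they were Ranbp1 (0.898 and 0.869) and Polk (0.894 and 0.86), and for Slc38a4 1700029P11Rik (0.834 and 0.811) and Kdm5c (0.823 and 0.809). For Slc6a9, at position 2, they were Wnt6 (0.943) at position 2 and Gpaa1 (0.943) at position 3, which fell to 0.749 and 0.693 without time point 5. For Slc7a1, at position 3, they were Glrp1 (0.971) at position 3 and Pcsk7 (0.966) at position 2, which fell to 0.894 and 0.742. Slc38a3 and Slc1a5 had too few time points.

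Lists of other transporter genes set the frame for these values. Of 30 further plasma membrane transporters 24 had a probe and 6 could be tested over time points, of which 1 was called higher and 1 lower on all arrays, where 13.6% of all genes were called higher and 9.05% lower. Slc6a19 (B0AT1), a neutral amino acid carrier, was higher at 11 of 11 time points (0.34 ± 0.22, SD, limma adjusted p = 0.00383) and remained called on the 18 arrays (0.30, adjusted p = 0.00113). Slc6a14, a broad neutral and cationic carrier, was lower at 9 of 9 time points (-0.37 ± 0.20, SD, adjusted p = 0.00425) and had too few time points on the 18 arrays. There the list had 3 of 5 called higher and 0 lower, where 883 of 4398 genes were called higher and 563 lower. Beside Slc6a19 these were Slc6a20a (0.26, adjusted p = 0.0118) and the glycine carrier Slc6a5 (0.15, adjusted p = 0.0232). Of 31 transporters of mitochondria and lysosomes 6 were tested and 0 called on all arrays, with Slc66a1 at 0.16 and Slc25a39 at 0.15. With 18 arrays Slc66a1 (PQLC2), a lysosomal carrier of cationic amino acids, was called (0.19, adjusted p = 0.00951), and 1 of 5 tested, the mitochondrial aspartate-glutamate carrier Slc25a12, passed the F-test (adjusted p = 0.000233), as did 33.7% of all genes. The organelle list had 2 genes with an unadjusted p under 0.05 on all arrays.

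**Figure D4:**
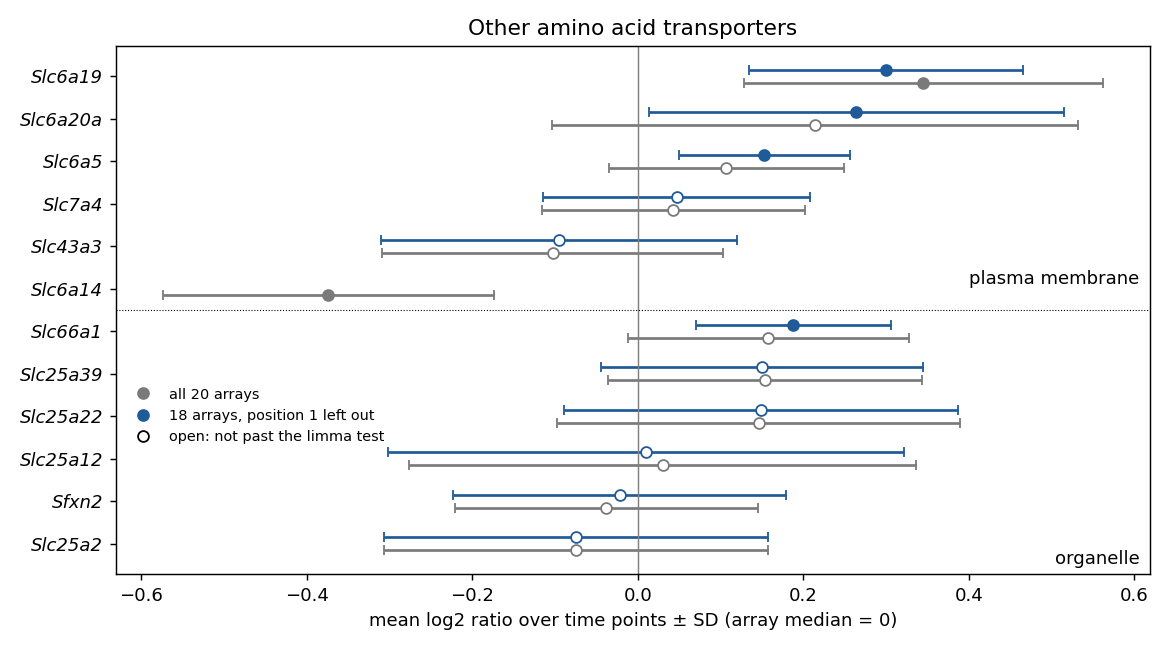
Mean log2 ratio over time points with SD (x, array median at 0) of the 12 genes that could be tested from the lists of other transporters, on all 20 arrays (grey) and on 18 arrays (blue). Filled points passed limma's test. Slc6a19 lies at 0.34 and 0.30, and Slc6a14, which could be tested only with all 20 arrays (grey), at -0.37.

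Of 6 tested genes of the GCN2-ATF4 list, the response that reads amino acid supply, 2 were called higher and 2 lower on all arrays, where 13.6% and 9.05% of all genes were. The stress-induced factor Ddit3 (CHOP) was higher (0.28 ± 0.32, SD, n = 11, limma adjusted p = 0.0444), as was Sesn2, an inhibitor of mTORC1 (0.25 ± 0.17, SD, n = 11, adjusted p = 0.00853). The factors Cebpb (-0.65 ± 0.41, SD, n = 11, adjusted p = 0.00225) and Jdp2 (-0.48 ± 0.54, SD, n = 10, adjusted p = 0.042) were lower. Of 9 tested genes of mTORC1 and its amino acid sensors 0 were called, also at an unadjusted p under 0.05, with the largest means for Rragd (-0.19) and Seh1l (-0.07). With 18 arrays 2 of 4 tested, Rragd (adjusted p = 2e-09) and Lamtor5 (0.00848), passed the F-test, as did 33.7% of 3259 genes. Of 6 tested enzymes of glutamine, glutamate and serine metabolism 1 was called higher and 0 lower on all arrays, where 13.6% and 9.05% of all genes were. It was Gad1, which makes GABA from glutamate (0.26 ± 0.20, SD, n = 10, adjusted p = 0.0171). With 18 arrays 2 of 5 tested were called higher and 1 lower, where 883 of 4398 genes were called higher and 563 lower. Beside Gad1, Shmt1 was called higher there (0.34, adjusted p = 0.0481) and Phgdh, the first enzyme of serine synthesis, lower (-0.20, adjusted p = 0.0375).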

How the data were processed

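The deposited table held 1 column of log2 ratios per array, made by the authors from spotted arrays. Background correction, blanking of spots, scale and normalization are not given in the sources used here, and base 2 is an assumption. Each array was centred on its median, because deposited medians ranged from 0.05 to 0.435. Of 17280 probes, 14718 had 1 gene symbol in the platform annotation, and probes of a gene were averaged. Array number, not read depth, limits the precision, and spot intensities were not used here.

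Tests used limma 3.58.1 in R 4.3.3: the mean of time points against 0 (9 or more time points), a moderated F-test and single time points over arrays (16 or more), and a periodic fit, each with Benjamini-Hochberg adjustment over all genes at 0.05. Scripts were tested on simulated data. Time points were treated as independent in the mean. Promoters and loci came from RefSeq GRCm38.p6.

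The rule named all 8 transporters, up to 4 called genes of each of 5 lists (otherwise the 2 with the largest mean) and the 2 genes most like each transporter. The members and lists were chosen with earlier results of these data known. Alternatives covered the arrays used, centring, gene limits, spot position, array number as a block and leaving out arrays or time points.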

Additional observations from a re-analysis of the deposited data

How the results depend on the processing

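In the mean over time points 0 of 7 transporters were called on all arrays. The 18 arrays with a limit of 6 time points gave 2 of 8, both lower, where 14.3% of genes were called lower. With positions 1 to 4 left out as well it was again 2 of 8, both lower, where 1026 of 6102 genes were called lower. Centred by position with that limit 1 of 8 was lower, where 9.61% of genes were. Centred in runs of 540, 1 of 7 was lower, where 9.45% were. Without centring 5 of 7 were called, all higher, where 2849 of 4752 genes were called higher. Leaving out a time point gave 0 to 1. The 1 was higher, without time point 5, where 17% of genes were called higher. Over all genes, 646 higher and 430 lower became 2849 and 46 without centring, where the median of all means rose to 0.28, and 0 and 0 with every second array reversed in sign. Lower calls were 890 on the 18 arrays and 1026 with positions 1 to 4 left out (both with the limit of 6), and 245 without time point 4. Leaving out a time point gave 477 to 774 higher and 245 to 401 lower. The F-test (0 transporters, 262 genes) gave 1 and 1097 on the 18 arrays and 1 and 882 with positions 1 to 4 left out. It gave 2 and 629 without time points 5, 6 and 10, 0 and 174 centred by position, and 1 and 384 in runs of 540. Leaving out an array gave 0 to 2 transporters and 152 to 1799 genes. Transporter values called over all single time points were 2 on all arrays and 6 on the 18 arrays. Of all genes' values 3.57% and 15.6% were called there. For the other settings this share was not worked out, so their transporter counts cannot be set against all genes. The count of transporter values was 4 with 10 or more arrays, at time points 5, 7 and 10, and 14 without centring. It was 1 with positions 1 to 4 left out, 4 without time points 5, 6 and 10, and 4 in runs of 540. Centred by position it was 0, and with each probe by itself 1. Counted apart, genes called at time point 3 alone were 7 on all arrays and 407 on the 18 arrays. They were 0 with 10 or more arrays, 1307 without centring and 394 with positions 1 to 4 left out. Without time points 5, 6 and 10 they were 474, and with each probe by itself 0. Leaving out an array gave 1 to 6 transporter values, and 0 to 340 genes at time point 3. The cause of these shifts was not tested, apart from the genes and arrays each setting removes.

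With the array number as a replicate block, 1 transporter value was called, Slc6a9 at time point 5. At time point 3, 0 genes were called in that fit. The numbers did not pair the arrays: over 36 pairs of time points, differences between second and first arrays correlated between -0.432 and 0.332, and 9 exceeded 0.1.

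Means changed sign without centring for Slc1a1 (0.17), Slc38a3 (0.079), Slc38a4 (0.18) and Slc6a9 (0.20), and with second arrays reversed for Slc1a1 (0.029), Slc3a2 (-0.0098), Slc6a9 (0.20) and Slc7a5 (-0.013). Leaving out a time point took Slc6a9 from -0.26 (without time point 5) to 0.025 (without 4) and Slc7a1 from -0.091 (without 5) to 0.073 (without 10). Slc7a1 was -0.007 centred by position, with either limit, and -0.053 with positions 1 to 4 left out and the limit of 6. Among all single-gene alternatives, 185 kept direction and side of the threshold, 25 lost a call, 13 gained one and 14 changed sign. Blank spots limit Slc1a5, Slc38a3 and Slc38a4 most.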
